A study of Homo sapiens with 4 samples.

Results

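The 10 genes described here are the 4 human tropomyosin genes (TPM1, TPM2, TPM3 and TPM4), the nonmuscle myosin II chain genes MYL9, MYH9 and MYH10, the calponin genes CNN2 and CNN3, and TAGLN, which encodes the calponin relative transgelin. They were chosen by gene family, with earlier results of these data known, out of 22841 gene symbols counted in the series. RNA came from PC-3M-luc, a human prostate carcinoma cell line with a luciferase reporter. The groups were RNAi control cells and LSD1 RNAi cells, LSD1 being the histone demethylase encoded by KDM1A, and both were harvested 72 h after transfection with Dharmafect 2. Each group held 2 libraries that the labels call biological replicates, all from this 1 line, and the RNAi sequences were not used here. The p-values measure the spread between these libraries, which may be partly technical.

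Tropomyosins are coiled-coil proteins that lie end to end along actin filaments and set which myosins and other binding proteins reach the filament. Most mammalian tropomyosin genes give both long and short proteins through alternative promoters and exons. Nonmuscle myosin II, a hexamer of heavy chains, regulatory light chains and essential light chains, pulls on these filaments in stress fibres and in the cell cortex, while calponins and transgelin bind actin and steady the bundles.

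With 1 transcript row per gene, counts ran from 12040675 to 12831382 per library, so the detection floor of 3 counts lay between 0.232 and 0.247 CPM, which is a count scaled by its library's normalized total. This floor covers counting error only. KDM1A stood at 235 and 238 CPM in the control libraries and at 17.8 and 18.1 CPM in the knockdown libraries. All 8 epithelial markers listed passed the filter on low counts; CDH1, EPCAM and KRT8 were called higher (1.28, 0.50 and 0.47 on the log2 scale) and CLDN4 lower (-0.60). Of 8 luminal prostate markers 2 passed it and both were called higher, HOXB13 at 567 to 691 CPM (0.21) and ACP3 at 1.77 to 5.08 CPM (1.27), while KLK3, KLK2 and FOLH1 had 0 counts in every library. The HOXB13 call was lost without control replicate 1, knockdown replicate 1 or knockdown replicate 2 (0.15, 0.22 and 0.19). The part of these markers in the results was not tested. In bulk RNA, fewer cells that express a gene and less of its RNA per cell cannot be told apart.

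After LSD1 knockdown, 3 of the 4 tropomyosin genes fell, as did the myosin heavy chain genes MYH9 and MYH10. The MYH10 call rests on at most 28 counts per library and was lost under several alternatives given below. No member was called higher. Of the 10 members, 9 passed the filter on low counts, and MYL9 did not. Of those 9, 5 were called lower (edgeR quasi-likelihood test, Benjamini-Hochberg adjusted p under 0.05 over 13247 genes) and 0 were called higher, against backgrounds of 17.9% of all tested genes called lower and 18.2% called higher. The edgeR test gave 0 higher members also at an unadjusted p under 0.05, as did DESeq2 and limma-voom. Knockdown values lay below all control values for 6 of the 9 and above them for 1, where 33.5% of all tested genes lay below and 33.7% above. The median log2 fold change of the 9 tested members was -0.59, beside 0.0024 for all tested genes. The members, and the gene lists described below, were chosen with earlier results of these data known. Their shares beside those of all genes are therefore not an independent test. Without knockdown replicate 1 the count called lower was 3, since MYH9 and MYH10 then missed the threshold.

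**Figure D1:**
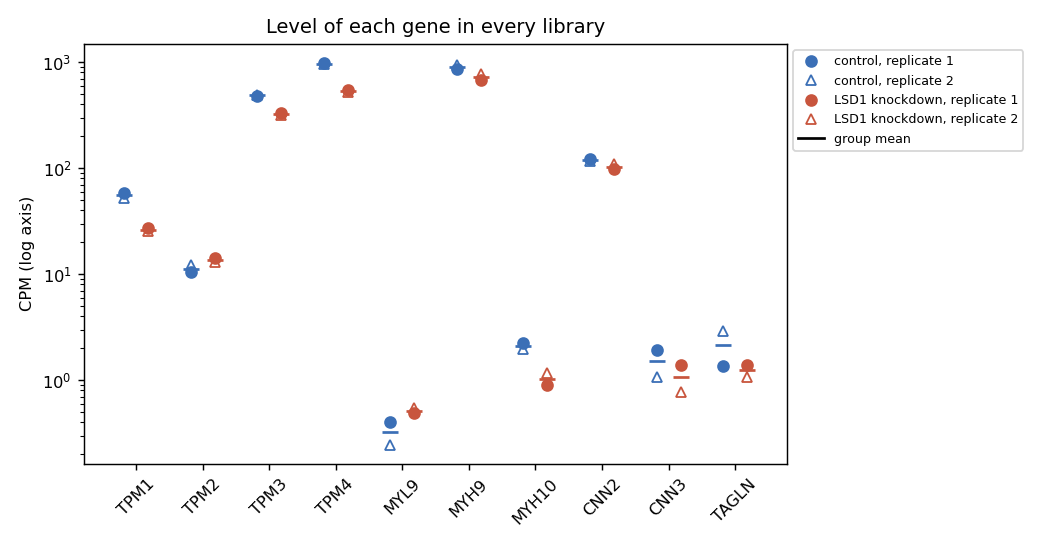
CPM of each of the 10 genes on a log axis, with 1 point per library (circles replicate 1, triangles replicate 2), control in blue and LSD1 knockdown in red, and bars at the group means. TPM1, TPM3 and TPM4 separate clearly between groups, whereas MYL9, CNN3 and TAGLN lie near or below a few CPM in all libraries.

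TPM1, whose products bind actin in stress fibres and are often reduced in carcinoma cells, had 58.9 and 52.7 CPM in the control libraries and 27.1 and 25.5 CPM in the knockdown libraries. Both knockdown libraries lay far below both control libraries. The 2.12-fold fall was -1.08 on the log2 scale (standard error, SE, 0.101, edgeR adjusted p = 3.46e-10). Of all tested genes, 1.29% had a log2 fold change at or below that of TPM1. Exons of TPM1 overlap those of the antisense gene TPM1-AS over 2070 nucleotides in GENCODE, counting is not stated to use strand, and the counts of that gene were not analysed here. Antisense genes also overlap exons of TPM4 over 829 nucleotides and of CNN2 over 338.

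TPM4, whose short product is a main tropomyosin of migrating nonmuscle cells, took the most reads among the 4 genes. It was measured at 980.0 and 951 CPM in control cells and at 544 and 520.0 CPM after knockdown. The spread within a group was small beside the gap between groups. The fall was 1.82-fold, or -0.86 on the log2 scale (SE 0.0825, edgeR adjusted p = 6.69e-10).

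TPM3, the source of short nonmuscle tropomyosins found in most cell types, had 483 and 490.0 CPM in control libraries and 328 and 320.4 CPM in knockdown libraries. The groups were again well apart, although the change was smaller than those of TPM1 and TPM4. Knockdown cells held 66.6% of the control level, or -0.59 on the log2 scale (SE 0.080, edgeR adjusted p = 6.82e-07). Processed copies of TPM3 lie elsewhere in the genome, and the 1 with a row in the tables, TPM3P9, held 279 and 312 counts in the control and 289 and 293 in the knockdown libraries. TPM3 values are uncertain to the extent that reads were shared with such copies.

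TPM2, which gives the beta tropomyosins of muscle and fibroblasts, was the tropomyosin gene with the fewest reads, and its change was not called. It had 10.4 and 12.2 CPM in control libraries and 14.2 and 13.1 CPM in knockdown libraries. Its knockdown values lay just above the control values. The log2 fold change was 0.27, with a 95% interval from -0.02 to 0.57, and did not pass (edgeR adjusted p = 0.141). That interval lies above the whole 95% interval of TPM3, which ran from -0.75 to -0.42, but the difference between the genes was not itself tested.

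Reads of the 4 tropomyosin genes together amounted to 1532 and 1506 CPM in control libraries and to 913 and 879 CPM in knockdown libraries. The knockdown mean of this sum was 59.0% of the control mean. TPM4 supplied 63.6% ± 0.568 of tropomyosin reads in control cells and 59.4% ± 0.280 after knockdown, and TPM3 supplied 32.0% ± 0.718 and 36.2% ± 0.368 (SD, n = 2 each). TPM2 went from 0.743% ± 0.0927 to 1.52% ± 0.0404 of these reads (SD, n = 2 each). These are shares of reads and not of molecules, because the counts are not corrected for transcript length. The shares were not tested.

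**Figure D2:**
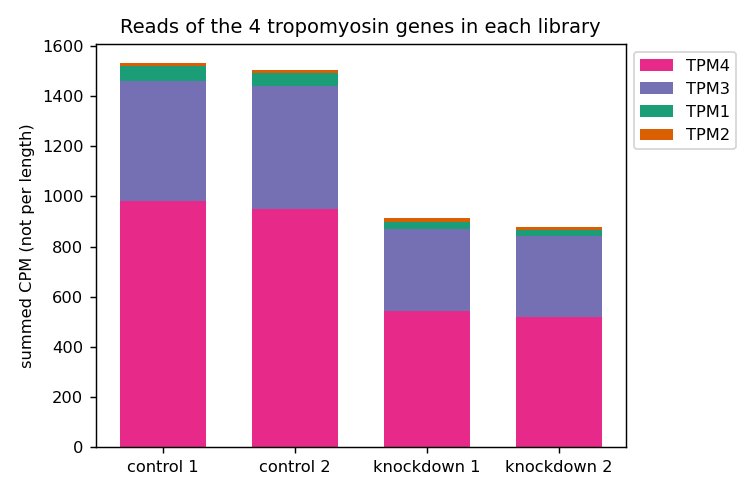
Stacked CPM of TPM4, TPM3, TPM1 and TPM2 (vertical axis, starting at 0 and not corrected for length) in each of the 4 libraries. The summed height is 1506 CPM or more in the control libraries and 913 CPM or less in the knockdown libraries, and TPM4 and TPM3 fill most of each bar.

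The tables count reads for each RefSeq transcript, so tropomyosin isoforms have rows of their own, 7 for TPM1, 2 for TPM2, 5 for TPM3 and 2 for TPM4. Rows of 1 gene count shared exons again and are not independent. In a fit over all 24163 tested rows, all 14 rows of TPM1, TPM3 and TPM4 fell and 0 of the 16 tropomyosin rows rose, where 18.9% of all tested rows were called lower and 18.4% higher. The 2 rows of TPM2 did not pass (edgeR adjusted p = 0.154 and 0.0764), although the row NM_213674 was called higher when no normalization factor was used (edgeR adjusted p = 0.0432).

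In TPM1, the 6 rows that encode 284 amino acid codons in the matched GENCODE models had log2 fold changes from -1.09 to -1.07. The row NM_001018008, with 245 codons and 203 coding nucleotides that no other TPM1 row holds, had 596 and 614 counts in the control and 234 and 258 in the knockdown libraries. It changed by -1.34 on the log2 scale (SE 0.106, edgeR adjusted p = 4.96e-13). It corresponds to a short tropomyosin, and its values were the lowest relative to control of all 16 rows. Its counts were 81.5% and 95.9% of those of the long row NM_001018020 in the control libraries. In the knockdown libraries they were 70.7% and 78.2%. The control libraries thus differed in this ratio, and the difference between the rows was not tested. All TPM1 rows share 456 coding nucleotides, so reads of the long forms enter the short row. In the long rows NM_000366 and NM_001018005, counts were lower than in the others, such as 422 and 400 in control libraries for NM_000366 against 731 and 640 for NM_001018020.

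In TPM3, the long row had the smaller change. This row, NM_152263, with 285 codons and 323 coding nucleotides of its own, had 932 and 835 counts in the control and 668 and 722 in the knockdown libraries, or -0.39 on the log2 scale (SE 0.0906, edgeR adjusted p = 0.000703). The 4 short rows of 247 or 248 codons had between 5871 and 5998 counts in the control and between 3950 and 4145 in the knockdown libraries, and each had a log2 fold change of -0.60. The counts of NM_152263 were 15.5% and 14.0% of those of the short row NM_001043352 in the control and 16.7% and 17.4% in the knockdown libraries. All 5 rows share 456 coding nucleotides, so reads of the short forms enter the long row.

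In TPM4, the long row NM_001145160, with 284 codons, and the short row NM_003290, with 248, had similar changes. NM_001145160 had 12171 and 11554 counts in the control and 6639 and 6728 in the knockdown libraries, and NM_003290 had 9283 and 8522 against 5140 and 5092. Their log2 fold changes were -0.87 and -0.84. The rows share 612 coding nucleotides, and the short row held 76.3% and 73.8% of the count of the long row in the control and 77.4% and 75.7% in the knockdown libraries. Differences between rows of a gene were not tested.

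**Figure D3:**
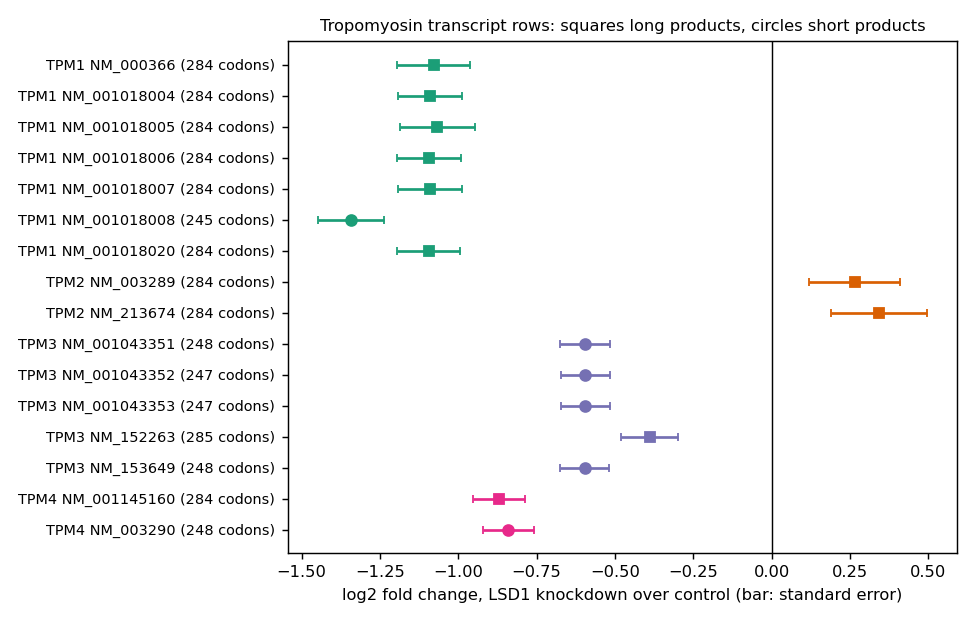
Log2 fold change of each tropomyosin transcript row (points) with its standard error (bars), coloured by gene, with squares for rows of 284 or 285 codons and circles for rows of 245 to 248. Rows of TPM1, TPM4 and TPM3 lie left of 0 in that order, with NM_001018008 of TPM1 farthest left, and both rows of TPM2 lie right of 0.

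MYH9, which encodes the heavy chain of nonmuscle myosin IIA, was measured at 866 and 945 CPM in control cells and at 680.3 and 777 CPM after knockdown. Knockdown replicate 1 was the lowest library, and knockdown replicate 2 was nearer to the control range without entering it. The 1.24-fold fall was -0.31 on the log2 scale (SE 0.0864, edgeR adjusted p = 0.00457). Without knockdown replicate 1 the change was -0.23 and did not pass (edgeR adjusted p = 0.117).

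MYH10, which encodes the heavy chain of myosin IIB, was rare in this line, with 28 and 24 counts in the control and 11 and 15 in the knockdown libraries. Per kilobase of transcript, MYH9 stood at 115 and 125 CPM and MYH10 at 0.294 and 0.258 CPM in control libraries, so that MYH9 held 99.8% of the summed level of this pair. MYH10 changed by -1.03 on the log2 scale, with a 95% interval from -1.76 to -0.29 (edgeR adjusted p = 0.0243). The call was lost without control replicate 1, without control replicate 2 and without knockdown replicate 1, with edgeR adjusted p of 0.174, 0.0685 and 0.155. It was also lost with DESeq2 (adjusted p = 0.191) and with sums over rows (edgeR adjusted p = 0.0507). Its exons overlap 72 nucleotides of NDEL1 on the opposite strand, a gene with a mean of 403 counts beside 19.5 for MYH10.

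MYL9, which encodes a regulatory light chain best known from smooth muscle, had 5 and 3 counts in the control and 6 and 7 in the knockdown libraries. All values lay close to the floor of 3 counts, so no fold change was drawn. The related regulatory light chain genes MYL12A and MYL12B supplied far more regulatory light chain reads. MYL12A had 273 ± 10.6 CPM in control and 184 ± 16.4 CPM in knockdown libraries (SD, n = 2 each) and fell by 0.57 on the log2 scale (edgeR adjusted p = 2.09e-06). MYL12B, named after its values were seen, had 173 ± 5.36 and 183 ± 14.1 CPM (SD, n = 2 each) and did not pass (edgeR adjusted p = 0.465). The coding sequences of these paralogs are nearly identical, and how shared reads were divided between them is not stated, so the difference between them is uncertain.

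CNN2, the calponin of nonmuscle cells, had 122 and 116 CPM in control libraries and 98.6 and 109 CPM in knockdown libraries. The values did not overlap but lay close together. The log2 fold change was -0.20, with a 95% interval from -0.37 to -0.02, and it did not pass (edgeR adjusted p = 0.0691). Without knockdown replicate 2 it was called lower, at -0.27 (edgeR adjusted p = 0.0407). The interval leaves a fall of the size seen in TPM4 or TPM1 outside it.

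CNN3, an acidic calponin, and TAGLN, an early marker of smooth muscle, were both rare. CNN3 had 24 and 13 counts in the control and 17 and 10 in the knockdown libraries, overlapping ranges, and changed by -0.48 on the log2 scale, with a 95% interval from -1.32 to 0.35 (edgeR adjusted p = 0.383). Without control replicate 1 its log2 fold change was 0.0027. TAGLN had 17 and 35 counts in the control and 17 and 14 in the knockdown libraries. Control replicate 2 stood apart from the other 3 libraries. The log2 fold change of TAGLN was -0.78, with a 95% interval from -1.54 to -0.01, and did not pass (edgeR adjusted p = 0.105). It was called lower without control replicate 1 (-1.22, edgeR adjusted p = 0.024) and was -0.15 without control replicate 2. TAGLN exons overlap 446 nucleotides of PCSK7 on the opposite strand, which had a mean of 551 counts, so the origin of the few TAGLN reads is uncertain. Changes of the size seen in MYH9 were not detectable at the depth of these rare genes.

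**Figure D4:**
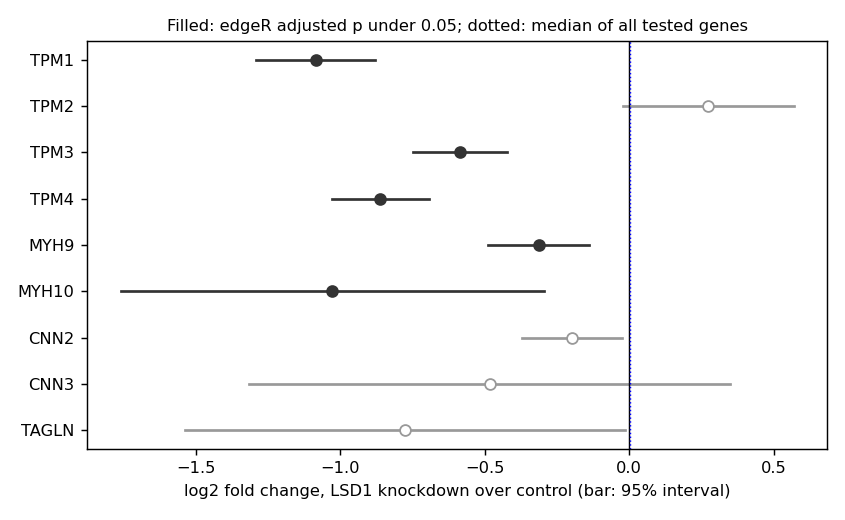
Log2 fold change of the 9 tested members (points) with 95% intervals (bars), filled where the edgeR adjusted p was under 0.05, and a dotted line at the median of all tested genes. TPM1, TPM4 and TPM3 have short intervals left of 0, whereas those of MYH10, CNN3 and TAGLN are wide.

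Promoter sequence of the members was looked at because serum response factor, SRF, binds the CArG box of many contractile genes. RefSeq windows on GRCh38.p14, from 250 bases before to 50 after a gene start, were found for 8 members, 13 windows in all, and not for MYL9 and TAGLN. A CArG box lay in 2 of the 13 windows, 1 of TPM4 and the 1 of CNN2, whose change was not called. The 1 window of TPM1 and the 2 windows of TPM3 held none. Of all 35116 promoter windows of 300 bases, 1.29% held one, and the difference in shares was not tested. Both boxes are printed in capitals with 10 bases on either side, on the strand of the gene. That of TPM4 is at chr19:16067355-16067384, with the box starting 173 bases before the gene start, and that of CNN2 is at chr19:1026509-1026538, with the box starting 89 bases before it.
TPM4: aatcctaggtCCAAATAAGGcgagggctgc
CNN2: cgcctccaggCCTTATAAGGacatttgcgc
The TPM4 box is in the window of the most upstream of 3 TPM4 starts.

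The TEAD motif CATTCC was searched on both strands and had 1 match each in windows of MYH9, MYH10 and CNN3, printed in capitals with 10 bases on either side, while 14% of all windows held it. The MYH9 sequence is at chr22:36388022-36388047, that of MYH10 at chr17:8630913-8630938 and that of CNN3 at chr1:94925896-94925921, each on the minus strand.
MYH9: ctcccggctgGGAATGgtcccgcggc
MYH10: caatgagcgtCATTCCaggtgggtgg
CNN3: tccctccctgCATTCCaagcccatga
The motifs TGANTCA, bound by AP-1, and TATAAA had no match in the 13 windows, on either strand, and were found in 7.71% and 11.5% of all windows. A match is a description of letters and not a shown binding site.

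Of SRF and its cofactors, 2 of 8 tested genes were called higher and 2 lower, near the 18.2% and 17.9% of all tested genes, and their median log2 fold change was 0.04. SRF itself, named after its values were seen, had 79.3 ± 2.68 CPM in control cells and 88.9 ± 5.55 CPM after knockdown (SD, n = 2 each) and did not pass (edgeR adjusted p = 0.138). ELK1, a ternary complex factor that binds beside SRF, rose 1.54-fold. FHL2, a LIM domain cofactor, fell 1.36-fold, and ELK3, another ternary complex factor, fell 1.48-fold. SCAI, a suppressor of SRF coactivators, rose by 0.34 on the log2 scale, but its exons overlap 886 nucleotides of GOLGA1. The SCAI call was lost without control replicate 1 or knockdown replicate 1 (0.31 and 0.17) and with DESeq2 (adjusted p = 0.137).

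Among 7 other tested chains of the myosin II family, 3 fell and 0 rose, beside 17.9% and 18.2% of all tested genes, and the median log2 fold change was -0.01. The edgeR test also gave 0 higher genes at an unadjusted p under 0.05, as did DESeq2 and limma-voom, while summing the rows of each symbol gave 1. Besides MYL12A, the essential light chain gene MYL6 fell 1.51-fold, from 404 ± 54.3 to 268 ± 2.29 CPM, and MYL6B fell 1.44-fold, from 146 ± 8.68 to 102 ± 3.06 CPM (SD, n = 2 each, edgeR adjusted p = 2.16e-06 and 8.0e-06). MYL6 and MYL6B share 89 exon nucleotides, and MYL6 also overlaps SMARCC2 over 514, so their values are uncertain. Among 14 unconventional myosins 3 rose, a share near the 18.2% of all tested genes, and 1 fell, beside 17.9%, with a median of 0.01. MYO6, a motor that walks toward the minus end of actin, rose 1.71-fold, and MYO5A, a motor of organelle transport, fell 1.63-fold. MYO1D and MYO18A rose by 0.30 and 0.28 on the log2 scale. The MYO1D call was lost without control replicate 1 (0.13), and that of MYO18A without control replicate 2 or knockdown replicate 2 (0.24 and 0.16) and with DESeq2 (adjusted p = 0.108). MYO18A shares 1394 exon nucleotides with TIAF1 on the same strand. Without control replicate 1 the number of unconventional myosins called lower was 2.

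In the list of light chain kinases, phosphatases and their regulators 10 of 36 tested genes fell and 4 rose, where 17.9% of all tested genes fell and 18.2% rose, and the list's median log2 fold change was -0.13. MYLK, the myosin light chain kinase gene, had 31.3 and 30.8 CPM in control libraries and 14.1 and 15.1 CPM in knockdown libraries, a 2.13-fold fall (edgeR adjusted p = 8.45e-09), and its exons overlap 133 nucleotides of MYLK-AS1. CIT, a kinase of the cytokinetic ring, fell 1.70-fold, and CDC42BPB, an MRCK kinase that acts on myosin phosphatase, fell 1.51-fold. ARHGEF11, an exchange factor that activates RHOA, rose 1.65-fold. ROCK2, named after its values were seen, fell 1.49-fold (edgeR adjusted p = 4.03e-06). The other genes that rose, also named after their values were seen, were DAPK3, a light chain kinase, by 0.42 on the log2 scale, LIMK2, a cofilin kinase, by 0.40 and PPP1CB, the catalytic subunit of myosin phosphatase, by 0.22. The DAPK3 call was lost without knockdown replicate 2 (0.25), and that of LIMK2 without any 1 of the 4 libraries (0.32 to 0.48). That of PPP1CB was lost without control replicate 2, knockdown replicate 1 or knockdown replicate 2 (0.15, 0.21 and 0.21). With DESeq2 the LIMK2 and PPP1CB calls were also lost (adjusted p = 0.231 and 0.0849). Among falls named after their values were seen, PPP1R14B was not called without control replicate 2 or knockdown replicate 1 (-0.20 and -0.21). PPP1R12A was not called without control replicate 1 or knockdown replicate 1 (-0.21 and -0.25). ARHGEF2 was not called without control replicate 1, control replicate 2 or knockdown replicate 1 (-0.29, -0.24 and -0.21). The count of rises in this list was 2 without control replicate 2, 2 without knockdown replicate 1 and 1 without knockdown replicate 2.

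By Euclidean distance over the 4 libraries in centred log2 CPM, the genes most like TPM1 among the 139 tested genes of the actomyosin lists, which hold none of the 10 members, were MYLK at 0.162, PALLD at 0.208 and ARPC5 at 0.254. By the same measure the member TPM4 lay at 0.237. PALLD, a scaffold of stress fibres, had 33.7 and 28.1 CPM in control libraries and 17.4 and 15.8 CPM in knockdown libraries, and its exons overlap 108 nucleotides of CBR4 on the opposite strand. ARPC5, a subunit of the Arp2/3 complex, had 93.8 and 97.5 against 54.6 and 49.2 CPM. With 2 groups of 2 libraries this likeness reflects mainly the size of the change between groups.

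Of the actin crosslinkers and stress fibre proteins, 11 of 27 tested genes fell and 3 rose, beside 17.9% and 18.2% of all tested genes, with a median log2 fold change of -0.19. PDLIM7, a PDZ and LIM protein that binds tropomyosin, fell 2.00-fold, from 85.6 ± 8.31 to 42.7 ± 4.45 CPM (SD, n = 2 each, edgeR adjusted p = 8.32e-10). LIMCH1, an activator of myosin II, fell 1.63-fold. The filamin gene FLNA had control values of 2942 ± 236 CPM and knockdown values of 1526 ± 181 CPM (SD, n = 2 each). Among falls named after their values were seen, FLNC was not called without knockdown replicate 1 (-0.23 on the log2 scale). ACTN4 and PDLIM3 were not called without control replicate 2 (-0.23 and -0.76) or knockdown replicate 1 (-0.22 and -0.71). The PDLIM3 call was also lost with DESeq2 (adjusted p = 0.0943). The genes that rose, named after their values were seen, were TES, a LIM protein of focal adhesions, by 0.54 on the log2 scale, CSRP1, a LIM protein that binds alpha-actinin, by 0.41, and ZYX, which encodes the tension-sensitive adhesion protein zyxin, by 0.35.

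In the list of actins and other thin filament genes, 3 of 12 tested genes fell and 1 rose, beside 17.9% and 18.2% of all tested genes, with a median log2 fold change of -0.17. ACTG1, the gamma cytoplasmic actin gene, had 2354 ± 133 CPM in control and 2972 ± 65.5 CPM in knockdown libraries (SD, n = 2 each) and rose 1.26-fold (edgeR adjusted p = 0.00259). ACTB, the beta actin gene named after its values were seen, had 2199 ± 64.2 and 2099 ± 48.2 CPM (SD, n = 2 each) and did not pass (edgeR adjusted p = 0.579). Both actin genes have near-identical coding sequences and processed copies, so reads may be shared. TAGLN2, the abundant nonmuscle relative of TAGLN, fell 1.20-fold, SMTN, a smoothelin gene, fell 1.21-fold and TMOD3, which caps the pointed ends of tropomyosin-coated filaments, fell 1.23-fold. The TMOD3 call was lost with DESeq2 (adjusted p = 0.0871). It was also lost without control replicate 2 or knockdown replicate 2 (-0.27 and -0.25 on the log2 scale). The TAGLN2 call was lost without control replicate 2 or knockdown replicate 1 (-0.20 and -0.25). That of SMTN was lost without control replicate 1 or knockdown replicate 1 (-0.27 and -0.23). The list then held 1 called fall without control replicate 2 and 1 without knockdown replicate 1, with 2 rises in each case.

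In the actin nucleation and assembly list 10 of 36 tested genes fell and 3 rose, beside 17.9% and 18.2% of all tested genes, with a median log2 fold change of -0.09. Besides ARPC5, which fell 1.84-fold, WDR1, a cofactor of cofilin, fell 1.54-fold and DSTN, the actin depolymerizing factor destrin, fell 1.46-fold. Among falls named after their values were seen, ARPC1B was not called without control replicate 1 or knockdown replicate 1 (-0.21 and -0.20). TMSB10 was not called with DESeq2 (adjusted p = 0.118). TMSB4X, which sequesters actin monomers, rose 1.48-fold. The other genes that rose, chosen by their values, were TWF1, a monomer-binding twinfilin, at 0.34 on the log2 scale and ACTR2, an Arp2/3 subunit, at 0.23. Without control replicate 2 neither was called (0.12 and 0.22). ACTR2 was also not called without control replicate 1 or knockdown replicate 1 (0.24 and 0.18). The TWF1 call was lost with DESeq2 as well (adjusted p = 0.0749).

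**Figure D5:**
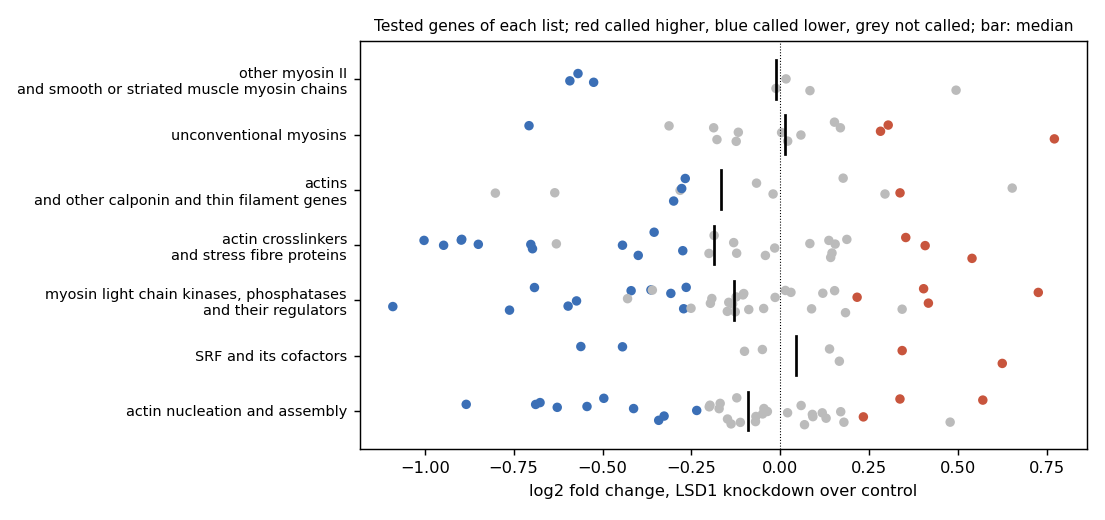
Log2 fold change (horizontal axis) of every tested gene in the 7 actomyosin lists, with red points called higher, blue points called lower, grey points not called, and black bars at the list medians. Blue points outnumber red ones in every list except those of unconventional myosins and of SRF and its cofactors, and the medians run from -0.19 to 0.04.

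Markers of other contractile cells were looked at beside these results. Of 10 smooth muscle markers 3 were tested, DES, MYOCD and KCNMB1 had 0 counts in every library, and the summed level was 81.9 to 82.4 CPM in control and 66.0 to 72.1 CPM in knockdown libraries, mostly from SMTN. Of 15 striated muscle markers 2 were tested and 7 had 0 counts, including MYOD1 and MYOG, and the summed level of 115 to 137 CPM in control and 174 to 180 CPM in knockdown libraries came largely from TTN. Of 12 fibroblast and endothelial markers 5 were tested, LUM and CDH5 had 0 counts, and the summed level was 92.8 to 104 CPM in control and 130 to 132 CPM in knockdown libraries. The rise of this sum came mostly from KDR, with means of 24.5 and 55.1 CPM. COL1A2 was also called higher (0.61 on the log2 scale, 0.33 without control replicate 1). PECAM1 was called lower (-0.74), but not with DESeq2 (adjusted p = 0.259). PDGFRA (-0.25) and COL1A1 (-0.11) were not called. Of 13 leukocyte and erythroid markers 3 were tested, PTPRC and HBB were among 6 with 0 counts, and the summed level was 89.1 to 91.3 CPM in control and 47.7 to 50.4 CPM in knockdown libraries, mostly from CD68. These levels moved with the groups, and their part in the results was not tested.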

How the data were processed

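RNA was measured in 2 control and 2 LSD1 RNAi libraries. The authors deposited 1 count for each RefSeq transcript, with no header. These were taken as raw because all are whole numbers with unequal totals. The submitters' processing notes list TopHat2, HOMER, edgeR, DESeq 1.8.3 and hg19 without saying what each did. Neither the kit, nor strand use, nor how reads were counted is given in the sources used here.

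Of 38767 rows, 37205 were named from a RefSeq table and 472 from GENCODE metadata. The 1090 unmatched rows, 1.38% to 1.40% of counts, were left out. The row with the highest mean stood for each symbol. Low genes were removed by filterByExpr (minimum count 10, minimum total 15). After TMM scaling, edgeR 4.0.16 (R 4.3.3) fitted group alone by quasi-likelihood over 13247 genes at a Benjamini-Hochberg adjusted p of 0.05. The standard error is the absolute log2 fold change over the square root of the F statistic, and 95% intervals follow from it. The common dispersion was 0.00355. The fit was also run on simulated counts, whose outcome is not given here and which cannot show whether the replicate spread is technical.

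The genes named are all members, every tropomyosin row, KDM1A, up to 4 called genes per list with the smallest adjusted p, and 3 genes most like TPM1. Some genes that this rule or the marker lists would name are not reported here. The members and lists were chosen with earlier results of these data known. Alternatives were DESeq2 1.42.0, limma-voom (limma 3.58.1), other scalings and filters, sums over rows, unmatched rows kept, a replicate block and leaving out each library. Protein sequences were not used here, and the planned identities between members were not computed. Transcript length was used only for MYH9 and MYH10, since lengths of the models matched to tropomyosin rows differ widely between rows.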

Additional observations from a re-analysis of the deposited data

How the results depend on the processing

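Under 13 alternatives, TPM1, TPM3 and TPM4 kept their direction and stayed called lower, with log2 fold changes of -1.16 to -1.01, -0.61 to -0.55 and -0.90 to -0.83. TPM2 stayed positive and was not called, at 0.16 to 0.39. The number of members called lower was 4 with DESeq2 and with sums over rows, 5 with limma-voom, and 3 to 6 when each library was left out in turn. The log2 fold change of CNN3 ran from -0.96 to 0.0027 when each library was left out, and it changed sign without control replicate 1. Counts over all genes then ran from 1768 to 1988 higher and from 1891 to 1997 lower. With DESeq2, 1564 genes (11.8%) were called higher in place of 2414, and 1618 (12.2%) lower in place of 2375. The cause was not tested. Sums over rows gave 2224 genes higher and 2282 lower, and limma-voom gave 2416 and 2359. MYH10 was the member no longer called lower with DESeq2 and with sums over rows. Without a normalization factor, 1 tropomyosin row was called higher, NM_213674. Scaling moved the median log2 fold change of all genes to at most 0.037.

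Replicate numbers are shared between groups, but nothing in the labels pairs the libraries, and deviations of same-numbered libraries correlated at 0.068. With the replicate number as a block, 2629 genes were called higher and 2630 lower, and 6 members were called lower, since CNN2 then passed (edgeR adjusted p = 0.0432). With 2 libraries per group and few counts, MYL9, MYH10, CNN3 and TAGLN are measured least precisely.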
